A study of Mus musculus with 4 samples.

Results

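The genes of the p53 pathway were followed across 4 clonal mammary tumor cell lines. The list held 36 genes that regulate p53 or are known targets of it, and 32 of them had a probe set annotated to a single gene symbol. Each of the 32 was represented by 1 probe set, out of 23410 probe sets with a gene symbol and 35556 in all. Trp53, Cdkn1a, Bax and Gdf15 were dropped by this rule and are not analysed here, so neither the transcript of p53 itself nor that of p21 enters the results.

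RNA from each line was hybridised to 1 Affymetrix MoGene 1.0 ST array, and the values are log2 expression levels, on which 1 unit is a 2-fold difference. The tumor arose spontaneously in a female FVB/N mouse (FVB in the labels) that carries a rat neu (ErbB2) transgene driven by the mammary MMTV promoter, so all 4 lines share strain, transgene and tumor. M1 and M2, the mesenchymal-like lines, were cloned from sorted cells low in neu and CD24 and grown in MEGM, a mammary growth medium with little serum and with pituitary extract, epidermal growth factor, insulin and hydrocortisone. E1 and E2, the epithelial lines, were cloned from sorted cells high in neu and CD24 and grown in RPMI with more serum. No treatment is listed for any line. Cell type and culture medium therefore cannot be told apart. M1 formed no tumor after injection into the mammary fat pad, whereas M2, E1 and E2 did. Each line is 1 clone measured once, so every p-value below measures the spread between these clones, and cultures of one clone were not compared.

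The p53 protein is a transcription factor that is held at low levels by Mdm2 and Mdm4 and is released when DNA is damaged or oncogenes are active. It then binds paired copies of a short half-site near its target genes, and the products of those genes arrest the cell cycle, repair DNA, restrain growth signals or trigger apoptosis through death receptors and mitochondria. Several targets, Mdm2 and Ppm1d among them, feed back and lower p53 again, and the pathway is often mutated or silenced in breast tumors.

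Sequence before the transcription start was available for 24 of the 32 genes, from RefSeq (GRCm38.p6). In the 250 bases before the start, on both strands, 8 of the 24 genes (33.3%) held a perfect match to the p53 half-site consensus, against 8.2% of 27025 genes. Counted by start, 8 of 31 starts of these genes (25.8%) held one, against 7.13% of 32851 starts. The search looked for single half-sites, not for paired copies, and binding of p53 was not measured. Each is printed 5′ to 3′ on the strand of its gene, with the half-site in capitals and up to 15 bases on either side.
Mdm2 (chr10:117710920-117710959, minus strand): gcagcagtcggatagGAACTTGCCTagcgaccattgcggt
Ppm1d (chr11:85311107-85311146, plus strand): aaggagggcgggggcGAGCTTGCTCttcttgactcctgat
Ccng1 (chr11:40755447-40755486, minus strand): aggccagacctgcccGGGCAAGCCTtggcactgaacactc
Gadd45a (chr6:67037423-67037462, minus strand): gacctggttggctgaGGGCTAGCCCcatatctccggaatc
Ei24 (chr9:36797335-36797359, minus strand): tgccccgtgcggcccGGGCATGCCC
Aen (chr7:78895922-78895961, plus strand): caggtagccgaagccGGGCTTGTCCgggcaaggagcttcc
Polk (chr13:96519394-96519433, minus strand): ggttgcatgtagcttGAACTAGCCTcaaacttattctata
Sesn1 (chr10:41887251-41887290, plus strand): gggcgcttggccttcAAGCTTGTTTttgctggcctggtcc
The half-site of Ei24 ended at the base before the start, and that of Polk lay farthest away, with its first base 231 bases before the start. Aen, Polk and Sesn1 have 2 annotated starts each, which gave them more sequence to match. The other 16 genes, among them Fas, Eda2r, Dram1 and Phlda3, had no match, which says only that these letters are not in this window.

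The arrays had similar medians over all probe sets, between 6.75 and 6.85. The markers of the labelled types separated the lines: Cdh1, which encodes E-cadherin, was 6.70 in M1 and 6.51 in M2, against 12.15 in E1 and 12.31 in E2. Of 10 epithelial markers 6 were called lower in M1 and M2, and of 10 mesenchymal markers 5 were called higher, but Krt8 and Krt18 were above 13 in every line, and Col1a1 and Col1a2 stayed between 7.15 and 7.73. In a bulk culture, fewer cells of a type and less RNA per cell cannot be told apart.

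M1 was the line in which p53 target genes were most often highest, and M2 the one in which they were most often lowest. In 19 of the 32 genes M1 lay above the 3 other lines, a position M1 took in 26.0% of all probe sets with a symbol. It lay below the others in 5 of the 32, against 26.2% of all probe sets. M2 lay below the 3 other lines in 13 of the 32 genes, against 25.9% of all probe sets, and above them in 4, against 27.0%. Set directly against each other, M1 exceeded M2 in 25 of the 32 genes, whereas it did so in 49.1% of all probe sets.

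**Figure D1:**
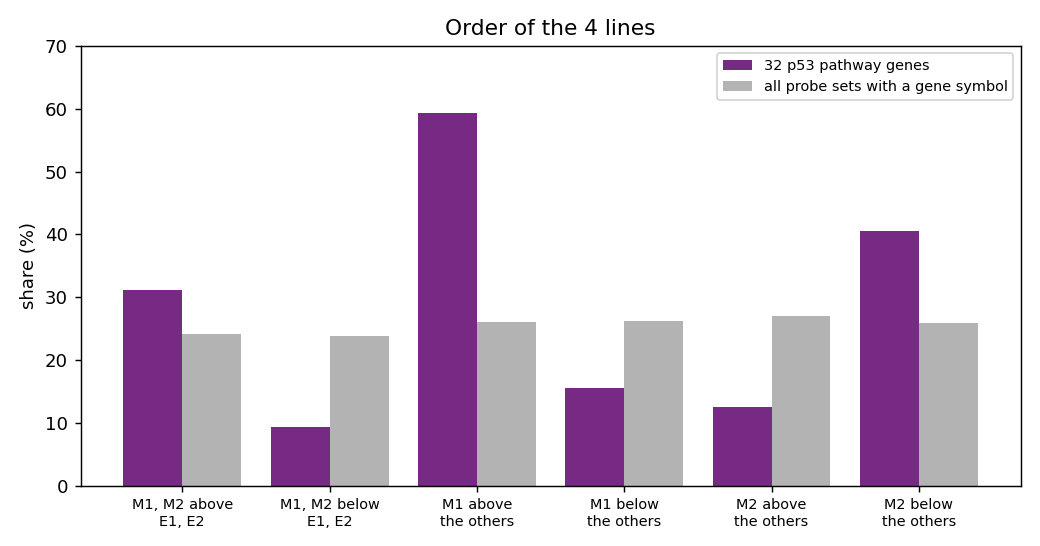
Share of the 32 p53 pathway genes (purple bars) and of all 23410 probe sets with a gene symbol (grey bars) in which the lines fell in the order named under each pair of bars, in percent. M1 was above the other lines in 19 of the 32 genes and M2 below them in 13, against 26.0% and 25.9% of all probe sets.

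The shift was visible in the medians as well. The median difference between M1 and the mean of M2, E1 and E2 was 0.47 over the 32 genes, against -0.01 over all probe sets. For M2 against the mean of M1, E1 and E2 it was -0.21, against 0.00 over all probe sets. The median of M1 minus M2 was 0.57 over the 32 genes and -0.01 over all probe sets, and that of E2 minus E1 was -0.00 and 0.02. By role, the median of M1 minus M2 was 1.31 for the 4 genes grouped as death receptors, among them Pidd1, which encodes no receptor. It was 0.74 for the 7 arrest genes and for the 2 sestrins, 0.69 for the 10 apoptosis effectors and 0.29 for the 5 repair genes. For the 4 regulators it was -0.07. Of the 8 genes with a half-site, 7 had M1 above the other lines, all but Ppm1d. The same held for 8 of the 16 genes without one and for 4 of the 8 genes whose promoter was not analysed here, beside 26.0% of all probe sets. This is a description of single arrays, with no test. A link between the half-sites and the levels in M1 was not tested.

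**Figure D2:**
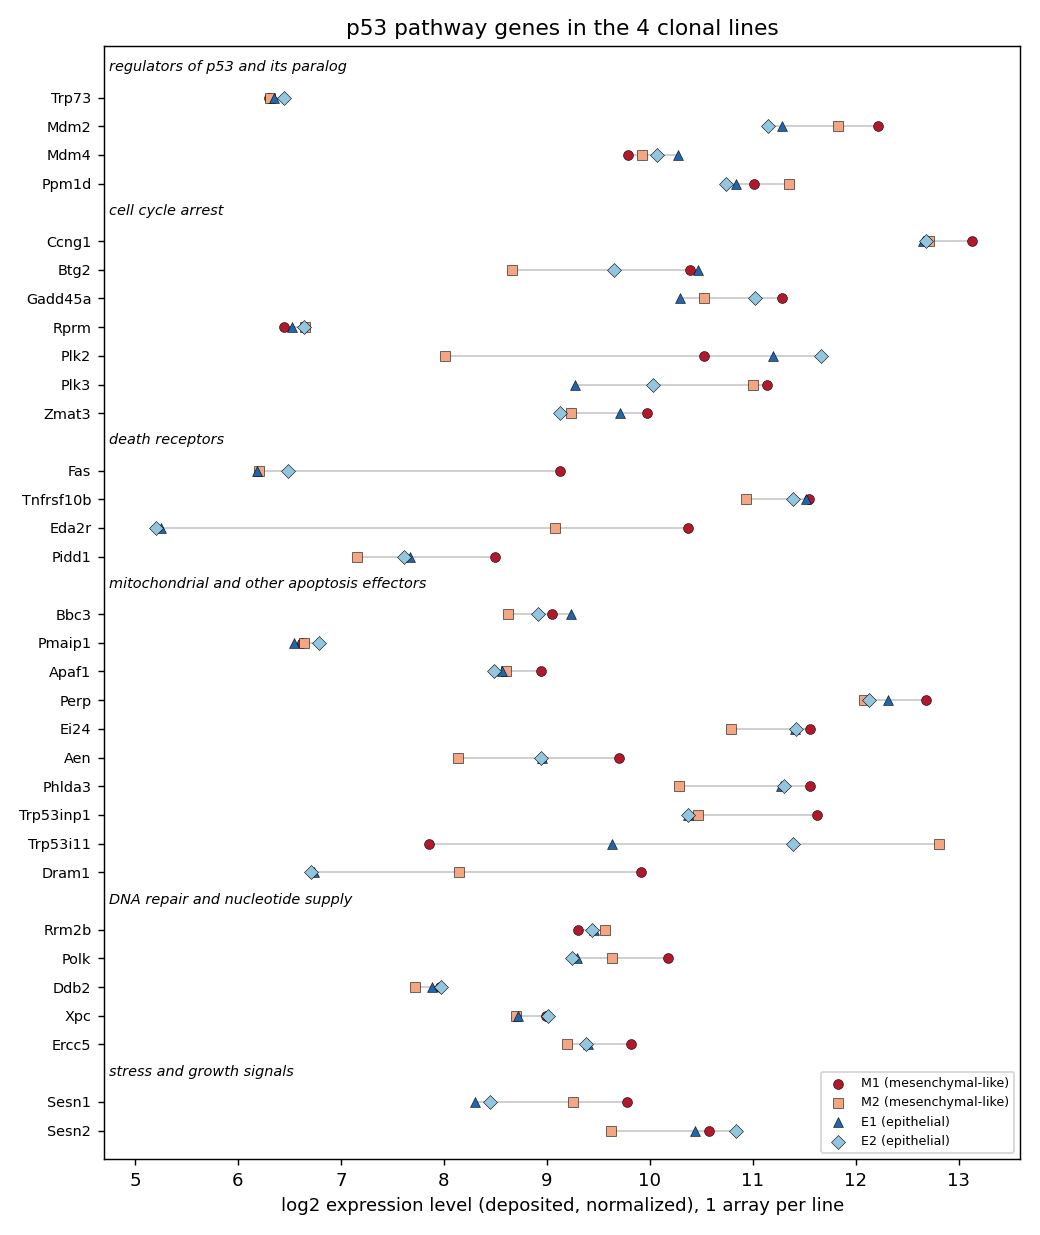
Log2 expression level (horizontal axis) of each of the 32 genes, grouped by role, in M1 (dark red circles), M2 (orange squares), E1 (dark blue triangles) and E2 (light blue diamonds), 1 array per line; a grey line joins the lowest and highest value. Levels of different genes come from different probe sets and are not comparable. Eda2r and Dram1 separate both mesenchymal-like lines from the epithelial lines, Fas and Trp53inp1 set M1 apart, and Plk2 and Phlda3 set M2 apart.

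Among the regulators, Mdm2, the ubiquitin ligase that degrades p53 and is also one of its targets, was 12.22 in M1 and 11.83 in M2, against 11.28 in E1 and 11.15 in E2. Both mesenchymal-like lines were above both epithelial lines, M1 most. The difference between the types was 0.81 (limma standard error 0.18, n = 2 lines each), with an unadjusted p of 0.0106 and a limma adjusted p of 0.124. Mdm4, which binds p53 and masks its activation domain, was 9.79 in M1 and 9.92 in M2, against 10.27 in E1 and 10.07 in E2, the opposite order. Its difference of -0.31 (standard error 0.13) had a limma adjusted p of 0.346. Ppm1d, the Wip1 phosphatase that removes activating phosphates from p53, was highest in M2 at 11.35, with 11.01 in M1, 10.84 in E1 and 10.74 in E2. Trp73, the gene for the p53 relative p73, lay between 6.30 and 6.45 in every line, below the median of 6.78 of all values in the file.

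The cell cycle arrest genes did not move together. Plk2, a polo-like kinase of early cell cycle control, was 8.01 in M2, against 10.53 in M1, 11.20 in E1 and 11.66 in E2. M2 was by far the lowest, and M1 also lay below both epithelial lines. Plk3, a stress-responsive kinase of the same family, was 11.14 in M1 and 11.00 in M2, against 9.27 in E1 and 10.03 in E2, a difference of 1.42 between the types (standard error 0.29, limma adjusted p = 0.112). Thus the 2 polo-like kinases ranked the lines differently, since M2 was near M1 for Plk3 and far below it for Plk2.

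Btg2, an antiproliferative cofactor, was also lowest in M2, at 8.66, with 10.39 in M1, 10.47 in E1 and 9.65 in E2. Ccng1, which encodes cyclin G1, was 13.13 in M1 and between 12.65 and 12.71 in the 3 other lines. Gadd45a, a stress sensor that inhibits mitotic entry, was 11.28 in M1 and 10.53 in M2, with 10.29 in E1 and 11.02 in E2. E2 was therefore closer to M1 than to E1 for this gene. Zmat3, a zinc finger RNA-binding protein, was highest in M1 at 9.97 and lowest in E2 at 9.13. Rprm, a mediator of arrest before mitosis, stayed between 6.45 and 6.65.

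The genes grouped as death receptors held the widest range of any of the 32, that of Eda2r. M1 was highest for all 4, which include Pidd1, the gene of a scaffold and not of a receptor. Eda2r, the receptor for the A2 form of ectodysplasin, was 10.37 in M1 and 9.08 in M2, against 5.25 in E1 and 5.20 in E2. Both epithelial values lay below the median of the file and both mesenchymal-like values far above it. The type means were 9.73 ± 0.91 in M1 and M2 and 5.23 ± 0.03 in E1 and E2 (SD, n = 2 lines each), a difference of 4.50 (standard error 0.47), with a limma adjusted p of 0.0279. Since the epithelial values were not shown to be above background, the size is uncertain, and with every value raised to at least the file median the difference was 2.95 (limma adjusted p = 0.309). Without E1 the difference was 4.52 and without E2 4.47, with limma adjusted p of 0.211 and 0.218, but in both of these fits 0 of all 23410 probe sets passed.

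Fas, the receptor of Fas ligand, was 9.13 in M1, against 6.20 in M2, 6.18 in E1 and 6.49 in E2. M1 stood alone, and the 3 other lines lay together below the file median. The difference of M1 from the mean of the 3 others was 2.84 (standard error 0.19), with an unadjusted p of 0.000296 and a limma adjusted p of 0.103. Pidd1, which encodes the scaffold of the caspase-2 activating complex, was 8.50 in M1 and 7.16 in M2, with 7.67 in E1 and 7.61 in E2 between them. Tnfrsf10b, the mouse TRAIL receptor, was 10.93 in M2, against 11.55 in M1, 11.52 in E1 and 11.39 in E2.

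Of the apoptosis effectors, Dram1, a lysosomal membrane protein that links p53 to autophagy, followed the pattern of Eda2r. It was 9.91 in M1 and 8.15 in M2, against 6.74 in E1 and 6.71 in E2. The difference between the types was 2.30 (standard error 0.64, limma adjusted p = 0.183), and M1 exceeded M2 by 3.41-fold. Trp53inp1, a nuclear protein that promotes p53 phosphorylation and autophagy, was 11.62 in M1, against 10.47 in M2, 10.37 in E1 and 10.37 in E2. M1 alone was high, as for Fas, by 1.21 over the mean of the others (standard error 0.12, unadjusted p = 0.00115, limma adjusted p = 0.203).

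Phlda3, which competes with Akt for membrane lipids, showed the reverse, with M2 alone low. It was 10.28 in M2, against 11.56 in M1, 11.27 in E1 and 11.30 in E2. Aen, an exonuclease of apoptotic cells, was 9.70 in M1 and 8.14 in M2, with 8.95 in E1 and 8.94 in E2. The epithelial lines lay near the middle, with M1 above and M2 below. Ei24, an endoplasmic reticulum protein, was 10.79 in M2, against 11.56 in M1, 11.41 in E1 and 11.42 in E2, so that M2 again was low.

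Bbc3, Pmaip1, Apaf1 and Perp, grouped here after their values were seen, had ranges below 1 log2 unit. Bbc3, which encodes the BH3-only protein Puma, was 9.05 in M1 and 8.62 in M2, with 9.23 in E1 and 8.91 in E2. Pmaip1, the gene for the BH3-only protein Noxa, lay between 6.54 and 6.79 in all 4 lines, around the file median. Apaf1, the core of the apoptosome, was 8.94 in M1 and between 8.49 and 8.60 in the others. Perp, a tetraspan membrane protein that also supports desmosomes, was 12.68 in M1 and 12.08 in M2, with 12.31 in E1 and 12.13 in E2. M1 was thus the highest line for Apaf1 and Perp, by small steps, and lay within the range of the others for the BH3-only genes.

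Trp53i11, a p53-induced transmembrane protein gene, had a range exceeded only by that of Eda2r, and an order of its own. It was 7.86 in M1 and 12.81 in M2, with 9.63 in E1 and 11.39 in E2 between them. M2 exceeded M1 by 31.0-fold, the only gene of the 32 at least 2-fold lower in M1 than in M2, and E2 exceeded E1 by 3.38-fold. Its name is among those shown beside the study's heat map. Transcripts for that map were selected from these same arrays by a wide difference between M1 and M2. They also had to be regulated reciprocally in M1 and the tumor-forming lines. The pattern of Trp53i11, with M1 lowest, is therefore no independent evidence. Neither M1 (difference -3.42, limma adjusted p = 0.773) nor M2 (3.18, limma adjusted p = 0.830) passed the test against the 3 other lines.

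The DNA repair genes lay within 1 log2 unit across the lines. Polk, a translesion DNA polymerase, was 10.18 in M1 and 9.63 in M2, against 9.29 in E1 and 9.24 in E2, a difference of 0.64 between the types (standard error 0.22, limma adjusted p = 0.262). It was the only repair gene in which both mesenchymal-like lines were above both epithelial lines. Ercc5, an endonuclease of nucleotide excision repair, was 9.82 in M1 and between 9.20 and 9.40 in the others. Ddb2 and Xpc, which recognise damaged bases in the same pathway, lay between 7.72 and 7.97 and between 8.70 and 9.01. Rrm2b, a ribonucleotide reductase subunit induced by p53, lay between 9.30 and 9.56, with M2 highest.

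Both sestrins restrain growth signalling through mTORC1, but they ordered the lines differently. Sesn1 was 9.78 in M1 and 9.25 in M2, against 8.30 in E1 and 8.45 in E2. The types did not overlap, and the difference was 1.14 (standard error 0.22, limma adjusted p = 0.0987). Sesn2 was 9.62 in M2, against 10.57 in M1, 10.44 in E1 and 10.84 in E2, with M2 alone low.

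Compared by type, few genes of the pathway passed the test. Eda2r was the only gene of the 32 that rose, 1 of 32 where 1.72% of all probe sets did, and 0 of 32 fell, against 2.02%. At an unadjusted limma p under 0.05, 6 of the 32 genes were higher in M1 and M2 (Eda2r, Sesn1, Plk3, Mdm2, Dram1 and Polk) and 0 were lower, against 8.95% of all probe sets higher and 9.00% lower at that level. Both mesenchymal-like lines lay above both epithelial lines in 10 of the 32 genes, against 24.2% of all probe sets, and below them in 3, against 23.8%. The median difference was 0.05 over the 32 genes and 0.00 over all probe sets. The counts of calls moved with those of the whole array when a line was left out: without M2, 7 of the 32 genes and 1879 of all probe sets were called, without M1 4 and 1761, and without E1 or E2 0 and 0. The median difference over the 32 genes was 0.37 without M2.

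**Figure D3:**
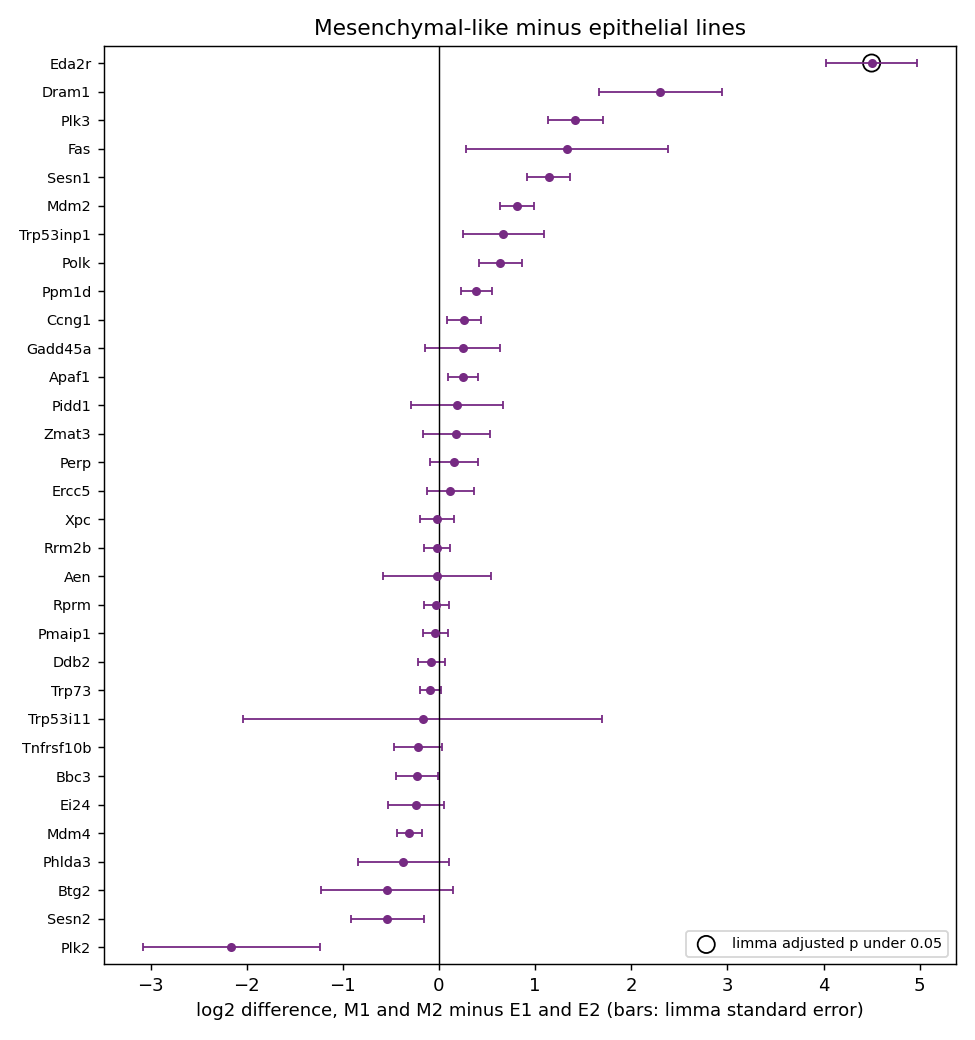
Difference in log2 level between the mesenchymal-like lines (M1, M2) and the epithelial lines (E1, E2) for each of the 32 genes, with the limma standard error as bars; the circled gene passed a limma adjusted p of 0.05. Eda2r, at 4.50, was the only one, and Trp53i11, Fas and Plk2 had wide errors, with M1 and M2 far apart.

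Set against the 3 tumor-forming lines, M1 had 0 of 32 genes past a limma adjusted p of 0.05 in either direction. Such calls were rare over the whole array, at 0.0854% of probe sets higher and 0.00854% lower. At an unadjusted limma p under 0.05, 9 of the 32 genes were higher in M1, against 4.40% of all probe sets. They were Fas, Trp53inp1, Ccng1, Pidd1, Dram1, Polk, Ercc5, Perp and Apaf1, and 0 were lower, against 2.61% of all probe sets. M1 is a single array here, and the test assumes that it would vary as the other 3 lines did, which include both cell types. Without M2 this becomes the comparison of M1 with E1 and E2 alone, in which 7 of the 32 genes were called, as given later.

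Markers of other cell types were also read in M1. Of 5 leukocyte markers 2 were highest in M1, beside 26.0% of all probe sets. Lyz2 was 8.91, against 6.57 in M2, 5.08 in E1 and 5.65 in E2. Ptprc was 5.88, against 5.54 in M2, 5.51 in E1 and 5.59 in E2. Cd3e was lowest in M1, at 6.62, against 6.89 in M2, 6.73 in E1 and 6.90 in E2. Itgam was 5.83 in M1 and Adgre1 4.91. All of these but Lyz2 lay below the file median in M1. The median of the 5 was 5.88 in M1 and 5.83 in M2, against 5.51 in E1 and 5.65 in E2. Of 4 endothelial markers 1 was highest in M1, beside the same 26.0%. It was Cdh5 at 7.58, against 6.72 in M2, 5.99 in E1 and 6.15 in E2, whereas Pecam1 was lowest in M1 at 5.74. The part of other cells in the M1 values was not tested.

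A comparison of M2 with the 3 other lines was added after the values were seen. In limma 0 of 32 genes passed an adjusted p of 0.05, as did 0% of all probe sets higher and 0% lower. At an unadjusted limma p under 0.05, 6 of the 32 genes were lower in M2 (Plk2, Phlda3, Ei24, Sesn2, Tnfrsf10b and Btg2), against 3.65% of all probe sets, and 1 was higher (Ppm1d), against 3.42%. Plk2 had a difference of -3.12 (standard error 0.51, unadjusted p = 0.006, limma adjusted p = 0.433) and Phlda3 one of -1.10 (standard error 0.18, unadjusted p = 0.00552, limma adjusted p = 0.424). Without M1 this becomes the comparison of M2 with E1 and E2 alone, given next, in which 4 of the 32 genes were called. Of 3 adipocyte markers 1 was highest in M2, beside 27.0% of all probe sets. It was Fabp4 at 10.77, against 7.20 in M1, 5.26 in E1 and 5.50 in E2, whereas Adipoq was lowest in M2 at 4.76. The part of other cells in the M2 values was not tested.

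Because M1 and M2 differed so widely, each was also set against the epithelial lines alone, with the spread taken from E1 and E2. M1 had 7 of 32 genes called higher, against 4.37% of all probe sets, and 0 called lower, against 3.65%. Eda2r rose by 5.14 on the log2 scale (limma adjusted p = 0.00285), Dram1 by 3.19 (0.00357) and Fas by 2.79 (0.0085). The epithelial values of these 3 genes lay below the file median, and with all values raised to it the differences were 3.59 for Eda2r, 3.14 for Dram1 and 2.35 for Fas. The other 4 rose less, Sesn1 by 1.40 on the log2 scale (limma adjusted p = 0.0226), Trp53inp1 by 1.25 (0.0231), Mdm2 by 1.01 (0.0433) and Polk by 0.91 (0.0474). The 7 genes fall in 5 of the 6 roles, with no arrest gene among them.

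M2 had 2 of 32 genes called higher against the epithelial lines, beside 3.90% of all probe sets, and 2 called lower, beside 3.63%. Eda2r rose by 3.85 on the log2 scale (limma adjusted p = 0.00332), or 2.30 with values raised to the file median, and Dram1 by 1.42 (0.019), or 1.37. Plk2 was 10.7-fold lower in M2 (limma adjusted p = 0.00977), and Phlda3 was 2.02-fold lower (0.0384). Eda2r and Dram1 were called in both lines, while Fas had a difference of 2.79 in M1 and -0.14 in M2, and Phlda3 one of 0.27 in M1 and -1.01 in M2. The comparisons of M1 and of M2 share E1 and E2, whose 2 arrays set the spread for both.

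**Figure D4:**
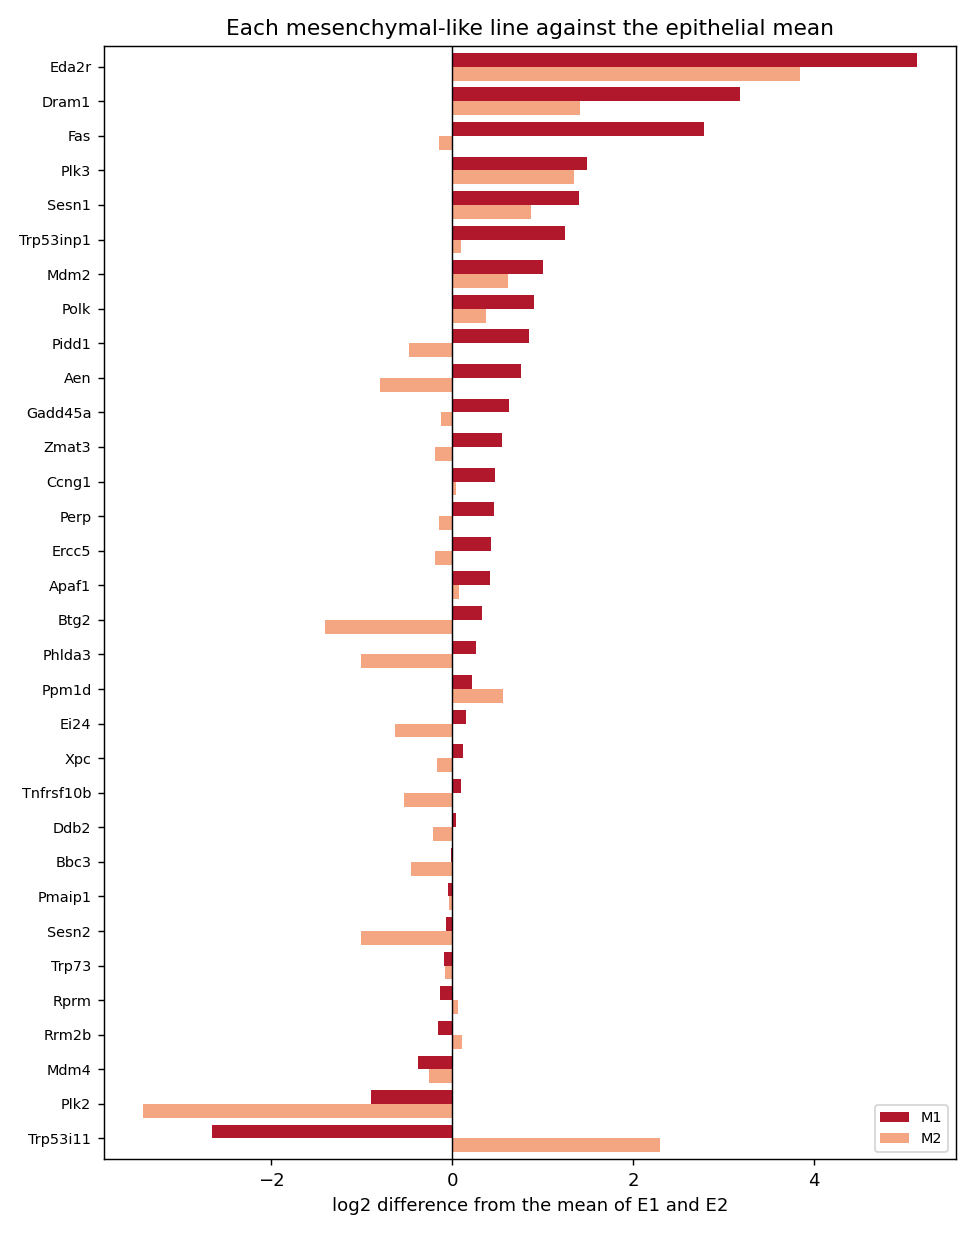
Log2 difference of M1 (dark red bars) and of M2 (orange bars) from the mean of E1 and E2 for each of the 32 genes, in order of the M1 difference. Eda2r and Dram1 are high in both lines, Fas and Trp53inp1 in M1, and Plk2, Btg2, Phlda3 and Sesn2 are low in M2.

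At least a 2-fold difference between the 2 mesenchymal-like clones was found for 9 genes higher in M1, of 32, against 3.22% of all probe sets, and for 1 lower, against 2.64%. Fas differed by 2.93 on the log2 scale, or by 2.35 with the M2 value, which lay below the file median, raised to it. The other 8 were Plk2 (5.74-fold), Dram1 (3.41-fold), Btg2 (3.32-fold), Aen (2.94-fold), Pidd1 (2.52-fold), Eda2r (2.45-fold), Phlda3 (2.43-fold) and Trp53inp1 (2.22-fold). The 9 genes span arrest, receptor and effector genes, and none is a regulator, a repair gene or a sestrin. E2 was at least 2-fold above E1 in 1 of the 32 genes, Trp53i11, against 1.25% of all probe sets, and at least 2-fold below it in 0, against 0.987%. Each of these is a difference between single arrays, with no test.

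Other genes of the pathway were examined as lists. Of 19 genes upstream of p53, such as its kinases and acetyltransferases, 0 passed the limma test between the types, and 3 were lower in M1 and M2 at an unadjusted p under 0.05, against 9.00% of all probe sets. Ppp1r13b, the gene for the p53 cofactor ASPP1, was 8.19 in M1 and 9.06 in M2, against 10.41 in E1 and 10.48 in E2 (limma adjusted p = 0.0864). Of these 19 genes, 7 had M1 above the other lines and 7 had it below, against 26.0% and 26.2% of all probe sets. Their median of M1 minus M2 was 0.02.

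In a second set of 23 p53 targets, M1 was above the other lines in 13 and below in 3, against 26.0% and 26.2% of all probe sets. M2 was below the others in 10, against 25.9%, and the median of M1 minus M2 was 0.38. This list too was chosen with earlier results of these data known. Between the types, 2 of the 23 rose and 2 fell, against 1.72% and 2.02% of all probe sets. The number called was 0 with values raised to the file median and without E1 or E2, and 2 when probe sets without a symbol were tested too. Abcb1a, a drug efflux pump, was 9.02 in M1 and 8.53 in M2, against 6.21 in E1 and 6.07 in E2, a difference of 2.64 (limma adjusted p = 0.0153). Ak1, an adenylate kinase, was 11.79 in M1 and 11.12 in M2, against 9.38 in E1 and 9.20 in E2 (difference 2.16, limma adjusted p = 0.0413). Sfn, the epithelial 14-3-3 sigma, was 6.82 in M1 and 7.34 in M2, against 9.16 in E1 and 9.33 in E2 (difference -2.16, limma adjusted p = 0.026), and Thbs1, the matrix protein thrombospondin 1, fell by 0.94 (limma adjusted p = 0.0422). Against the 3 other lines, M1 had 0 of the 23 past a limma adjusted p of 0.05. At an unadjusted limma p under 0.05, 2 of the 23 were higher in M1, against 4.40% of all probe sets.

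Of 13 genes of the apoptosis machinery outside the list, 0 passed the limma test between the types, and at an unadjusted p under 0.05, 2 were higher in M1 and M2 and 1 was lower, against 8.95% and 9.00% of all probe sets. Bcl2, the anti-apoptotic founder of its family, had a difference of -0.89 (limma adjusted p = 0.07). M2 lay below the other lines in 8 of these 13 genes and above them in 3, against 25.9% and 27.0% of all probe sets. Low values in M2 were therefore not particular to the 32 genes. M1 lay above the other lines in 4 of the 13 and below them in 0. Of 14 cell cycle genes that p53 represses through p21 and the DREAM complex, 13 had M1 and M2 above E1 and E2, against 24.2% of all probe sets, with a median difference of 0.80, and Mybl2 lay the other way. The limma test called 0 of the 14, and 8 were higher at an unadjusted p under 0.05, against 8.95% of all probe sets. M1 lay above the other lines in 8 of the 14 and below them in 0, against 26.0% and 26.2% of all probe sets. The median difference between M1 and the mean of the other lines was 0.51 for this list, beside 0.47 for the 32 genes. High values in M1 were therefore not particular to the 32 genes. The median of M1 minus M2 was 0.13 for this list. That of E2 minus E1 was 0.55, against 0.02 over all probe sets, so the epithelial clones also differed from each other.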

How the data were processed

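Each of the 4 clonal lines was measured on a single Affymetrix MoGene 1.0 ST array. The authors deposited normalized log2 expression values of 35556 probe sets. The submitters' processing notes name Partek, and the background correction and normalization are not given in the sources used here. The labels and the methods name different RNA kits. Of the probe sets, 21789 have 1 gene symbol in the platform annotation, 1621 several and 12146 none. The members were matched by gene symbol. Gene identifiers were then used to check the symbols against RefSeq, and none had changed.

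Lines were grouped by their labels. Differences were tested with limma 3.58.1 (lmFit, eBayes) in R 4.3.3, without covariates, on 23410 probe sets with a symbol. Adjustment was by the method of Benjamini and Hochberg over all of them, with a threshold of 0.05. The main fits on all lines had 2 residual degrees of freedom. Fewer remained with a line left out, with the replicate block, and with M1 or M2 set against E1 and E2 alone. A lone line is assumed to vary like the others. Counts of the order of lines and of 2-fold differences have no test. Arrays give no read depth, so the number of arrays limits precision. The code was tested on simulated data. Promoters were searched in Python 3.11.15 with pandas 2.3.3.

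The members and lists were chosen with earlier results of these data known. All 32 genes are named. Values in all lines were required for those called, those in which M1 or M2 lay 1 log2 unit from the nearest other line, those in which the types lay 1 unit apart, those in which E2 and E1 did, and Mdm2 and Mdm4. Of the other pathway genes, those called and up to 4 with wide differences per list could be named. Alternatives were quantile normalization, median centring, a raised floor, brighter probe sets only, averaged probe sets, a mean-variance trend, all probe sets, other thresholds, a replicate block and each line left out.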

Additional observations from a re-analysis of the deposited data

How the results depend on the processing

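For 26 pairs of a gene and a comparison, and 274 combinations of a pair with an alternative, 0 reversed direction. In each pair the tested line or type lay outside the range of the lines compared with it. Leaving out a line could therefore not reverse it. Averaging changed nothing, since no gene had more than 1 probe set, and the trend and the test on all probe sets left the difference as it was. The 0 therefore says little about robustness. Of the 274, 13 gained a call (11 when Dram1 and Polk, which the fit without M2 gives under both comparisons, are counted once). Another 4 lost one, all 4 for Eda2r between the types, where leaving out a line gave differences between 3.85 and 5.14. Of the 32 genes, the number called between the types was 1. It was 0 with values raised to the file median of 6.78, 2 with an adjusted p under 0.1, and between 0 and 7 with each line left out (7 without M2, 4 without M1, 0 without E1 or E2, where 0 of all 23410 probe sets passed). With a replicate block on the line number it was also 0, as was that of the 23 other targets, in place of 4, and Eda2r had an adjusted p of 0.0802. These numbers are clone names, and deviations of M1 and E1 from their type means correlated at -0.0375 over 23410 probe sets. For M1 against the 3 other lines the number called was 0, against 1 with the raised floor, Fas, for which the floor sets the 3 other lines to a single value and so fixes the call (293 of all probe sets passed there, against 22), and between 0 and 7 with a line left out. The 7 come from the same fit of M1 with E1 and E2 as those between the types without M2. For M2 against the others it was 0, and between 0 and 4 with a line left out (4 without M1, the same fit as between the types). Without M1, the types did not overlap in 28 genes (76.7% of all probe sets), without M2 in 26 (76.5%), and with any line left out in 18 to 28, compared with 13 on all lines, since fewer lines overlap less by construction. M2 lay outside the range of the others in 17 genes, or in 19 to 28 with a line left out. The median difference between the types was 0.05 and ranged from -0.13 to 0.37 with a line left out (0.37 without M2). At a limit of 1.5-fold, 17 genes differed between M1 and M2 in place of 10 (16 higher in M1 and 1 lower), and 4 between E2 and E1 in place of 1 (3 higher in E2 and 1 lower). The cause of these shifts was not tested, except that a fit on 3 lines takes its spread from 1 pair of arrays.

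With 2 clones of each type and 1 array per clone, a gene has to differ by much more than the clones of a type do to pass the test. Trp73 and Rprm lay below the file median of 6.78 in every line, and without detection calls their distance from background was not tested.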
